A study of Caenorhabditis elegans with 23 samples.

Results

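Small RNA was compared between whole worms of the groups labelled N2_Star and N2 of the nematode Caenorhabditis elegans. The comparison rested on 2 N2_Star and 3 N2 small RNA libraries, 5 of the 23 libraries of the series, and took in every gene with a count in at least 1 of them, 27184 of 46904 genes. N2 is the reference laboratory strain, and the labels give N2_Star under the isolate N2 without saying what the word Star marks. The series as a whole concerns small RNAs that are inherited apart from the nucleus. Its remaining groups were MY16, a wild isolate, and MY16_Star, and matching mRNA libraries existed for every group. All worms were adults of day 1 grown at 20 °C with E. coli OP-50 as food, and their RNA was taken from whole animals with TRIzol, so every value mixes germline and somatic tissue. The design text counts the failed small RNA library as one of MY16_Star. The sample list and the columns, which were followed here, hold 3 MY16_Star and 2 N2_Star libraries. Replicates are called biological in the design text without further detail, so the p-values measure the spread between libraries. For small RNA that spread was estimated over all 11 libraries, MY16 and MY16_Star included, and not over these 5 alone.

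In C. elegans, RNA-dependent RNA polymerases copy messenger RNAs into short antisense RNAs that Argonaute proteins carry. Some of these Argonautes, such as HRDE-1, silence the matching gene in the germline, and the small RNAs can pass to progeny for several generations. Others, such as CSR-1, bind small RNAs against genes that the germline expresses. A level of small RNA at a gene is read here as how much short RNA opposite to that gene the worms held. It is reported as CPM, the count of a gene scaled to the library's total over all genes. At noncoding genes that overlap a miRNA, whether the level is that miRNA or RNA made by these polymerases was not tested. The counts behaved like reads opposite to the gene. Of 214 miRNA genes, whose small RNA comes from their own strand, 207 had a mean under 1 CPM. In 36 of 43 pairs of a miRNA gene and a noncoding gene that overlap in position, the noncoding partner was the higher one. The miRNA gene was the higher one in 6. Strand was not used to form the pairs, some partners occur in several pairs, and only 19 pairs had a partner over 100 CPM. The pairs therefore describe levels and do not show on which strand a partner lies.

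The libraries were uneven in depth, from 1778321 gene counts in N2 replicate 3 to 19563562 in N2 replicate 2, so that 3 counts, the limit that a count of 0 allows, were worth 0.134 to 1.95 CPM. N2_Star replicates 1 and 2 held 16809884 and 4268550 counts. Over the genes tested, Pearson's r of log2 CPM was 0.984 between N2 replicates 1 and 2, and 0.909 and 0.906 between each of them and N2 replicate 3. N2 replicate 3 had its highest r, 0.931, with N2_Star replicate 1, and the N2_Star libraries had 0.951 with each other. Both N2_Star libraries had higher r with N2 replicates 1 and 2, at 0.965 and 0.957 for N2_Star replicate 1 and 0.960 and 0.958 for N2_Star replicate 2. Protein-coding genes took 58.5% of the counts in N2 replicate 3 and 61.7% in N2_Star replicate 1, against 69.3% to 70.9% in the other 3 libraries. By this share N2 replicate 3 and N2_Star replicate 1 stood apart in opposite groups, and results are given without them where they change. No pair of libraries agreed within sampling noise, since chi-square per degree of freedom was 19.0 or more.

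Small RNA levels were close in N2_Star and N2 at most genes. Of 12241 genes with enough counts to test, which held 99.7% of the counts, 94.7% differed by less than 2-fold, and the median log2 fold change was 0.01. The middle part of the genes, between the quartiles, lay from -0.19 to 0.23. Small RNA rose at 3 genes, T28B8.1, W04B5.3 and T20B3.1, and fell at none with a Benjamini-Hochberg adjusted p below 0.05 in edgeR's quasi-likelihood test, 0.0245% and 0.00% of the genes tested. The next smallest adjusted p in that test was 0.172. At an unadjusted p below 0.05 there were 332 genes, 2.71% of those tested, of which 223 were higher and 109 lower. DESeq2 called 13 genes higher and 1 lower. Another 14953 genes had counts but too few to test, and 10 of the genes tested had no count in these 5 libraries, since counts in MY16 or MY16_Star sufficed for the test.

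**Figure D1:**
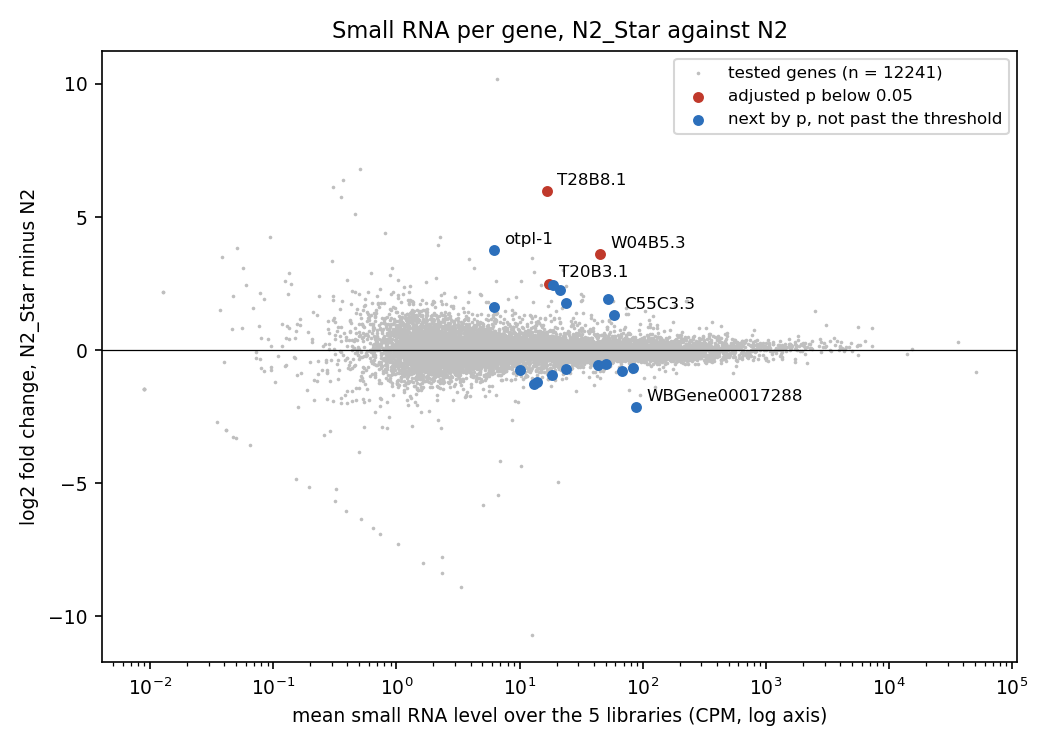
Log2 fold change of small RNA, N2_Star minus N2, against the mean level over the 5 libraries (CPM, log axis), with each grey point 1 of 12241 genes tested. The 3 red points, T28B8.1, W04B5.3 and T20B3.1, passed an adjusted p of 0.05. Blue points are the next genes by p in each direction among those of at least 5 CPM whose libraries did not overlap. The scatter is widest at low levels, where 29.5% of genes under 1 CPM differed by over 2-fold.

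T28B8.1 (WBGene00012113, protein-coding, chromosome I, 8134115 to 8135051 in WBcel235) had almost no small RNA in N2. Its levels were 0.759, 0.535 and 0.649 CPM in N2 replicates 1 to 3, from 13, 12 and 1 counts, and 34.7 and 47.1 CPM in N2_Star, from 546 and 216 counts. The N2_Star libraries were close to each other and far above every N2 library. The log2 fold change was 5.96 ± 0.347 (SE), or 62.3-fold, with an edgeR quasi-likelihood Benjamini-Hochberg adjusted p of 1.92e-05. In RNA of whole worms, more cells that make a small RNA and more of it per cell cannot be told apart.

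W04B5.3 (WBGene00021020, protein-coding, chromosome III, 2418514 to 2423912) stood at 8.94, 7.18 and 8.44 CPM in N2 and at 118 and 80.7 CPM in N2_Star. The 3 N2 libraries nearly coincided, and both N2_Star libraries lay far above them. Its log2 fold change was 3.62 ± 0.321, or 12.3-fold, with an adjusted p of 0.000916 in the edgeR quasi-likelihood test. T28B8.1 and W04B5.3 kept an adjusted p below 0.05 under all 13 alternative settings.

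T20B3.1 (WBGene00011850, protein-coding, chromosome V, 16815561 to 16820716) stood at 4.96, 5.66 and 9.09 CPM in N2 and at 32.9 and 34.2 CPM in N2_Star. The groups did not overlap, and the highest N2 library was replicate 3. Its log2 fold change was 2.50 ± 0.265, or 5.65-fold, with an edgeR quasi-likelihood adjusted p of 0.00393. The adjusted p from edgeR passed 0.05 under 10 of 13 settings and was 0.0681 without N2 replicate 1, 0.0725 without N2 replicate 2 and 0.162 when MY16 and MY16_Star were left out of the fit.

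All 3 genes had more small RNA in MY16 than in N2_Star. T28B8.1 was at 423, 275 and 261 CPM in MY16 and at 204, 163 and 138 in MY16_Star. W04B5.3 was at 610, 415 and 291 in MY16 and at 201, 180 and 140 in MY16_Star. T20B3.1 was at 443, 320 and 404 in MY16 and at 129, 92.3 and 88.6 in MY16_Star. In each case the order of the group means was MY16, MY16_Star, N2_Star, N2. The N2_Star mean was 12.8% of the MY16 mean for T28B8.1, 22.7% for W04B5.3 and 8.63% for T20B3.1. MY16_Star and MY16 are other libraries, but the same fit and its estimate of spread served both comparisons. From MY16 to MY16_Star T20B3.1 fell by 1.91 ± 0.220 (log2, SE) and W04B5.3 fell by 1.33 ± 0.267. Their edgeR quasi-likelihood adjusted p were 0.00119 and 0.0393. T28B8.1 differed there by -0.92 ± 0.227, with an edgeR adjusted p of 0.120, which missed the threshold.

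The difference between N2_Star and N2 was itself tested against that between MY16_Star and MY16. This interaction passed an adjusted p of 0.05 at 45 genes, 0.368% of the genes tested. For T28B8.1 it was 6.89 ± 0.416 on the log2 scale, with an edgeR quasi-likelihood adjusted p of 1.37e-05. For W04B5.3 it was 4.95 ± 0.417 and for T20B3.1 4.41 ± 0.344, with edgeR adjusted p of 0.000178 and 9.40e-05. At these genes the Star label thus went with more small RNA under the N2 name and with lower mean levels under the MY16 name.

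Among higher genes whose mean reached 5 CPM and whose libraries did not overlap between the groups, a further 7 came next by p. None of them passed the threshold. C55C3.3 (chromosome IV, 5685287 to 5688273) was at 31.5, 36.1 and 42.9 CPM in N2 and at 78.0 and 103 in N2_Star, with a log2 fold change of 1.31 ± 0.212 and an edgeR quasi-likelihood adjusted p of 0.172. Every N2_Star library exceeded every N2 library, and the edgeR adjusted p was 0.0356 without N2 replicate 3. Its MY16 mean was 256 ± 17.8 CPM (SD, n = 3) and its MY16_Star mean 75.7 ± 14.7.

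otpl-1 (chromosome IV), of the otopetrin-like family of predicted proton channels, was at 0.643, 0.936 and 2.60 CPM in N2 and at 18.2 and 8.72 in N2_Star. Its log2 fold change was 3.75 ± 0.631, the widest of the 7, and its edgeR quasi-likelihood adjusted p was 0.201, or 0.0356 without N2 replicate 3. Unlike the others, it had little small RNA in MY16, with a mean of 0.704 CPM.

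spds-1, which encodes spermidine synthase, was at 3.56, 7.49 and 10.4 CPM in N2 and at 21.0 and 50.6 in N2_Star, against a mean of 491 in MY16. nlp-40, which encodes a neuropeptide-like protein released by the intestine, was at 2.22, 4.24 and 3.90 CPM in N2 and at 11.4 and 9.16 in N2_Star, against 320 in MY16. pho-11, of the acid phosphatase family, was at 13.5, 9.36 and 13.6 CPM in N2 and at 26.4 and 56.5 in N2_Star, against 257 in MY16. In all 3 the groups did not overlap, and the N2_Star mean was 7.29%, 3.21% and 16.1% of the MY16 mean. Their log2 fold changes were 2.46 ± 0.476, 1.64 ± 0.297 and 1.78 ± 0.320, with edgeR quasi-likelihood adjusted p of 0.342, 0.240 and 0.240.

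C53D5.5 (chromosome I) was at 8.59, 7.67 and 9.09 CPM in N2 and at 20.1 and 60.2 in N2_Star, with a MY16 mean of 163. Y41D4A.7 (chromosome IV) was at 17.8, 32.8 and 24.0 CPM in N2 and at 95.0 and 93.7 in N2_Star, with a MY16 mean of 1066. The N2_Star libraries of C53D5.5 differed widely from each other and those of Y41D4A.7 hardly at all, and neither gene overlapped with N2. DESeq2 called all 7 genes, with adjusted p of 0.00194 or less. The edgeR fit without N2_Star replicate 1 called C53D5.5 and pho-11, and the fit without N2_Star replicate 2 called none of the 7.

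**Figure D2:**
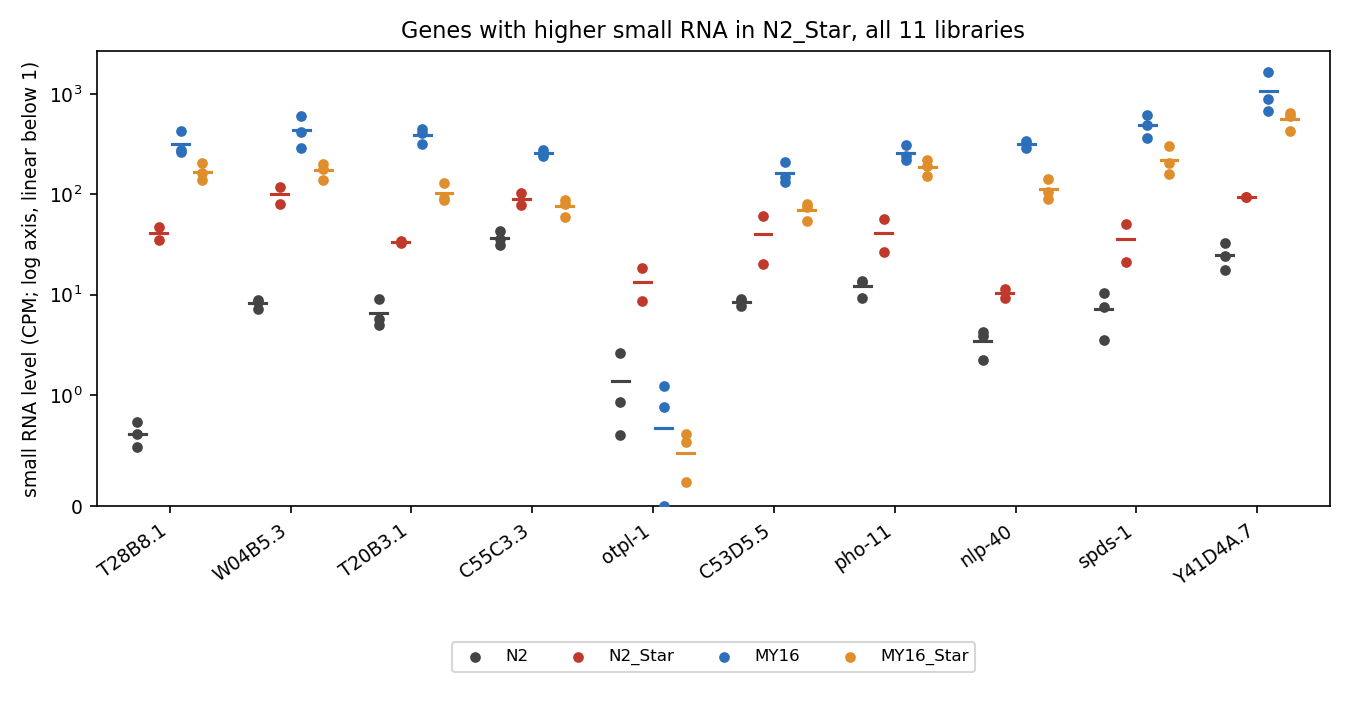
Small RNA level (CPM, log axis that is linear below 1) in each of the 11 small RNA libraries for the 10 genes with the smallest p among those higher in N2_Star, with each point 1 library and each bar a group mean. T28B8.1, W04B5.3 and T20B3.1 passed the threshold, and 9 of the 10 genes, all but otpl-1, have their highest mean in MY16.

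No gene had significantly less small RNA in N2_Star. Among lower genes of at least 5 CPM whose libraries did not overlap between the groups, the smallest p was that of WBGene00017288. This identifier has no symbol in the annotation used. It was at 125, 117 and 143 CPM in N2 and at 29.1 and 29.2 in N2_Star. The N2_Star libraries coincided, far below the lowest N2 library. The log2 fold change was -2.14 ± 0.456 with an edgeR quasi-likelihood adjusted p of 0.567, whereas DESeq2 gave an adjusted p of 0.00212 and edgeR on the N2 and N2_Star libraries alone gave 0.0346. The gene was also low in MY16, at 29.2, 43.8 and 46.7 CPM, and uneven in MY16_Star, at 19.6, 77.6 and 70.7.

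The 9 lower genes that followed had smaller differences, and the edgeR quasi-likelihood adjusted p of each was 1 as printed. gst-43, which encodes a glutathione S-transferase, was at 24.0, 19.9 and 9.74 CPM in N2 and at 8.38 and 7.63 in N2_Star (log2 fold change -1.20 ± 0.359). Y54E5A.8 was at 22.7, 16.8 and 12.3 CPM in N2 and at 8.19 and 6.10 in N2_Star (-1.29 ± 0.345). In both genes N2 replicate 3 was the N2 library nearest to N2_Star, and the groups did not overlap. tcl-2, which acts in the asymmetric division of the T cell, was at 23.9, 25.3 and 18.2 CPM in N2 and at 9.90 and 14.6 in N2_Star. snx-1, which encodes a sorting nexin of the retromer, was at 26.5, 24.4 and 35.1 in N2 and at 18.2 and 16.1 in N2_Star. magu-1, of the membrane-associated guanylate kinase family, was at 50.5, 55.6 and 42.2 in N2 and at 32.3 and 35.7 in N2_Star. The remaining 4, F48C1.6, ZK546.5, F19B6.3 and ZC308.4, had log2 fold changes between -0.78 and -0.53. None of the 9 passed the threshold under any of 13 settings.

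**Figure D3:**
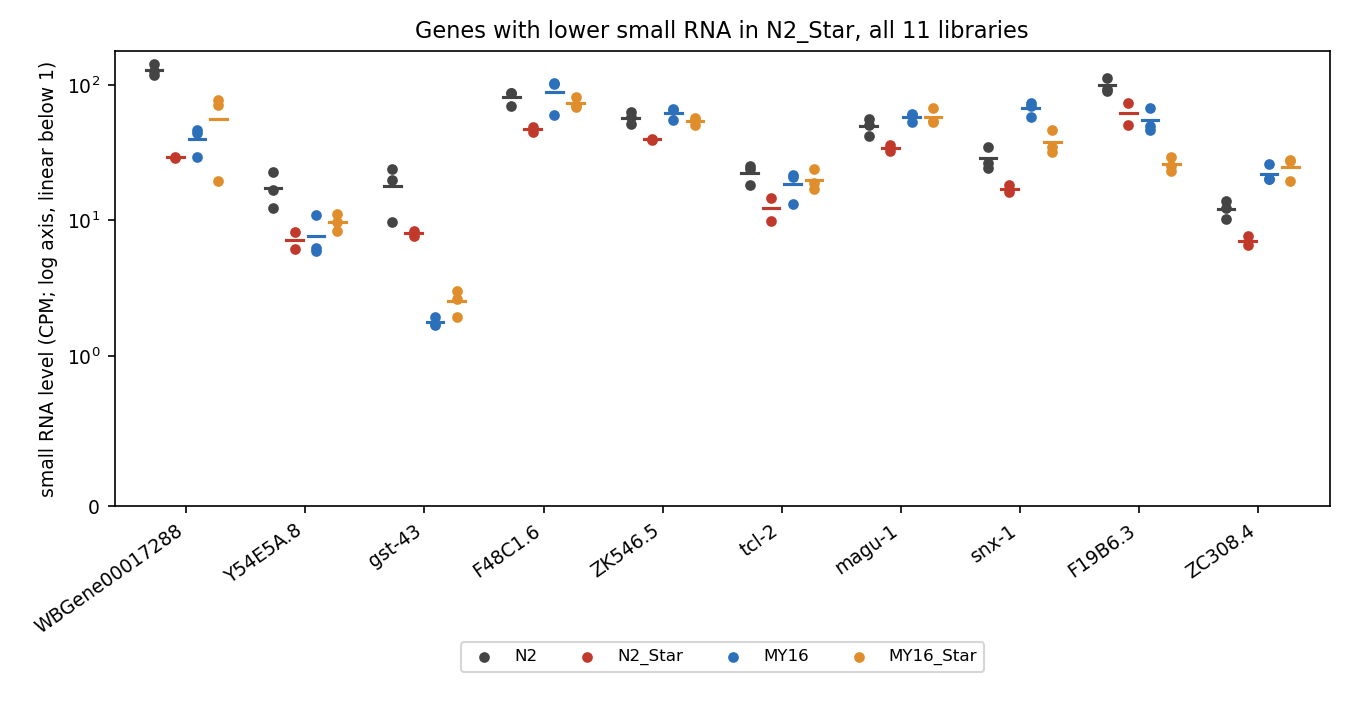
Small RNA level (CPM, log axis that is linear below 1) in each of the 11 small RNA libraries for the 10 genes with the smallest p among those lower in N2_Star, with each point 1 library and each bar a group mean. None passed the edgeR threshold, and WBGene00017288, at 29.1 and 29.2 CPM in N2_Star, is the widest difference.

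Beyond single tests, 8291 genes had a mean of at least 5 CPM. Among them 59 genes, 0.712%, were over 2-fold higher in N2_Star with both of its libraries above all of N2, and 22 genes, 0.265%, were over 2-fold lower. Over all genes tested the libraries did not overlap at 1155 higher genes, 9.44%, and at 741 lower genes, 6.05%. Of the 59 higher genes 29 were protein-coding and 20 were annotated as noncoding RNA, which is 0.400% of the 7241 protein-coding and 7.81% of the 256 noncoding genes at that level. In 11 of the 59 the count in N2 replicate 3, the shallowest library, was 0, and 10 of these 11 were noncoding RNA genes. Chromosome X held 12 of the 59, 2% of its genes at that level, and 8 of these 12 had 0 counts in N2 replicate 3. The share on the autosomes ran from 0.198% on chromosome III to 0.839% on V.

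The spread of the fold changes followed the level and the kind of gene. Of 129 genes over 1000 CPM 0.775% differed by over 2-fold, against 8.07% of 4733 genes between 1 and 10 CPM. Protein-coding genes differed by over 2-fold in 3.51% of 10226 cases, piRNA genes in 11.7% of 154 and other noncoding RNA genes in 27.4% of 508, whose median level over the 5 libraries was 5.15 CPM. The median log2 fold change was 0.00 for protein-coding, -0.11 for piRNA and 0.23 for noncoding RNA genes. On chromosome X 9.36% of 1207 genes differed by over 2-fold, where the median level was 4.93 CPM, and on chromosome III 2.39% of 1923 genes, where it was 26.2 CPM. The widest fitted folds in either direction, -10.68 and 10.20, belonged to separate identifiers that share the symbol rrn-4.2, a ribosomal RNA with near-identical copies, and rested on counts in 2 and in 1 of the 5 libraries. No gene reached 10 CPM in every library of one group with 3 counts or fewer in every library of the other.

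Some genes of muscle and yolk had high small RNA in N2_Star and in N2 replicate 3, and low small RNA in N2 replicates 1 and 2. unc-54, the myosin heavy chain of body wall muscle, was at 32.9, 17.9 and 254 CPM in N2 and at 332 and 270 in N2_Star. myo-2, a myosin heavy chain of the pharynx, was at 0.292, 0.178 and 50.0 CPM in N2 and at 62.8 and 45.8 in N2_Star. vit-2, which encodes a yolk protein, was at 9.99, 7.18 and 60.4 CPM in N2 and at 62.2 and 50.6 in N2_Star. In each gene N2 replicate 3 lay close to the N2_Star libraries, and the genes were singled out after this was seen. The edgeR quasi-likelihood adjusted p of each was 1 with all libraries, and 0.00182 for unc-54, 0.00131 for myo-2 and 0.00128 for vit-2 without N2 replicate 3.

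Without N2 replicate 3, edgeR called 15 genes higher and none lower, with 976 genes at an unadjusted p below 0.05. They included the 3 genes called with all libraries. The others, singled out after their values were seen, were myo-2, unc-54, vit-2, vit-6, elmd-1, T26G10.4, ZK673.4, otpl-1, C55C3.3, C55C3.7 and both identifiers with the symbol T26G10.9. T26G10.4 (chromosome III) was at 1.29, 0.892 and 31.2 CPM in N2 and at 44.8 and 40.8 in N2_Star. T26G10.9 was at 12.2, 11.2 and 331 in N2 and at 394 and 395 in N2_Star for one identifier, and at 11.3, 11.3 and 327 against 388 and 391 for the other. elmd-1, of the ELMO domain family, was at 8.76, 9.90 and 33.8 in N2 and at 43.6 and 64.5 in N2_Star. In T26G10.4, T26G10.9 and elmd-1 N2 replicate 3 was far above the other N2 libraries. Genes called only without that library are picked in part by this, so it is no separate result. Leaving out N2_Star replicate 1 as well gave 16 genes higher and 2 lower. How the makeup of N2 replicate 3 bears on these calls was not tested.

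None of the 28 gene lists had a member past the edgeR threshold with all libraries. The 6 vitellogenins, which encode yolk proteins, had a median log2 fold change of 1.11, beside 0.01 for all genes, or 2.51 with 2 members called without N2 replicate 3. Their summed level ran from 36.2 to 322 CPM in N2 and from 244 to 245 in N2_Star, so the groups overlapped. The 8 tested markers of body wall muscle had a median of 0.41, with 1 called, unc-54, without N2 replicate 3. act-4, a muscle actin, was at 6.66, 4.77 and 6.49 CPM in N2 and at 12.4 and 10.7 in N2_Star, with an unadjusted p of 0.0115 in edgeR. It was one of the list's members whose N2 replicate 3 stayed at the N2 level. Intestinal markers (6 tested) had a median of 0.62 and neuronal markers (9) one of 0.40, and sums over the lists ran from 13.3 to 56.5 CPM in N2 against 29.4 to 37.7 in N2_Star, and from 76.2 to 156 against 118 to 142. The intestinal and neuronal sums overlapped between the groups. The muscle sum did not, at 46.1 to 304 CPM in N2 and 310 to 379 in N2_Star, with N2 replicate 3 just below N2_Star. Most of that sum was unc-54, at 254 CPM in N2 replicate 3 and at 332 and 270 in N2_Star. The muscle sum thus describes mainly that gene. Without N2 replicate 3 the medians were 0.77 for muscle, 1.22 for the intestine and 0.52 for neurons, and without N2_Star replicate 1 they were 0.29, 0.30 and 0.35. The members of smallest p not yet given were vit-5 with a log2 fold change of 1.23 ± 0.672, the intestinal genes vha-6 and lys-1 with 0.72 ± 0.444 and 1.81 ± 1.13, and the neuronal genes rab-3 and unc-31 with 0.38 ± 0.254 and 0.63 ± 0.453.

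Small RNA at the genes of the small RNA machinery differed little between the groups. Of 20 Argonaute genes none was called, with a median of -0.12. sago-2, a somatic Argonaute gene, was at 27.5, 40.1 and 37.7 CPM in N2 and at 20.3 and 24.6 in N2_Star, with an unadjusted p of 0.0216 in edgeR. hrde-1, which encodes a nuclear Argonaute of germline inheritance, was at 495, 539 and 399 CPM in N2 and at 425 and 625 in N2_Star. prg-1, which encodes the Argonaute of piRNAs, was at 595, 668 and 460 in N2 and at 490 and 597 in N2_Star, and csr-1 was at 339, 468 and 311 against 249 and 433. In hrde-1, prg-1 and csr-1 the groups overlapped. wago-1 and rde-1, also Argonaute genes, had log2 fold changes of -0.16 ± 0.250 and -0.37 ± 0.282. sago-1, another Argonaute gene, was at 5.61, 3.92 and 7.79 CPM in N2 and at 3.302 and 3.27 in N2_Star, lower without overlap.

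No member of the lists of the other steps was called. Their medians lay between the quartiles of all genes, except that of piRNA biogenesis, which lay just below. Genes that amplify small RNA, 21 with rrf-1 and mut-7 among them, had a median of -0.13, and 19 of nuclear RNAi and heterochromatin had a median of -0.11. The 12 Dicer and ERI genes had a median of -0.01, the 17 of piRNA biogenesis -0.20, the 5 of systemic RNAi 0.15 and the 19 of P granules -0.06. pid-4, of the piRNA group, was at 245, 288 and 180 CPM in N2 and at 165 and 177 in N2_Star, where N2 replicate 3 lay just above both N2_Star libraries. sid-2, a gut protein for uptake of double-stranded RNA, was at 0.701, 0.714 and 0.649 CPM in N2 and at 1.78 and 1.53 in N2_Star, with an unadjusted p of 0.0163 in edgeR. These levels rested on 12, 16 and 1 counts in N2 and on 28 and 7 in N2_Star. In N2 replicate 3 a level of 1.95 CPM equals 3 counts, which is above both N2_Star levels. sid-1, which encodes a channel for double-stranded RNA, was at 463, 427 and 538 in N2 and at 532 and 506 in N2_Star. dcr-1, which encodes Dicer, was at 118, 127 and 106 CPM in N2 and at 99.5 and 105 in N2_Star, and eri-1, which encodes an exonuclease, was at 64.7, 80.7 and 69.5 against 56.8 and 60.4. Both were lower without overlap, with unadjusted p of 0.248 and 0.123 in edgeR. tost-1, of the PETISCO complex, was at 9.81, 9.19 and 7.79 CPM in N2 and at 11.9 and 15.7 in N2_Star. The other members of smallest p in these lists had log2 fold changes of -0.33 ± 0.250 (mut-7), -0.22 ± 0.172 (rrf-1), -0.37 ± 0.242 (lin-61), -0.27 ± 0.246 (mes-2), 0.49 ± 0.279 (cgh-1) and -0.30 ± 0.228 (meg-3). The 13 genes of spindle pulling force had a median of -0.14. Among them gpr-1, which sets cortical pulling on the spindle, was at 429, 556 and 279 CPM in N2 and at 260 and 382 in N2_Star, and its near-identical copy gpr-2 may share reads with it.

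Lists of known targets held no called gene either. The 11 genes listed as targets of heritable germline silencing had a median of 0.12 and the 7 ERGO-1 targets one of 0.12, with sums of 14138 to 23097 CPM in N2 against 16007 to 19774 in N2_Star, and of 5702 to 16111 against 7518 to 12782. rnh-1.3, of the first list, was at 2177, 1762 and 1810 CPM in N2 and at 2486 and 2119 in N2_Star. C36A4.11, of the second, was at 1541, 1215 and 2138 in N2 and at 2228 and 1971 in N2_Star. Both genes held abundant small RNA in either group. sax-2, the other member of the first list with the smallest p, is described with its mRNA, and Y17D7C.1, of the second list, was at 10.3, 8.21 and 24.0 CPM in N2 and at 24.9 and 7.63 in N2_Star. The medians of these lists were -0.20 and -0.49 without N2_Star replicate 1 and 0.27 and 0.65 without N2 replicate 3.

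The medians of the germline lists lay below 0, and that of spermatogenesis lay below the lower quartile of all genes, -0.19. The 69 tested spermatogenesis genes had a median of -0.33, which became -0.03 without N2_Star replicate 1, and 2 members were higher and 5 lower without overlap, beside 9.44% and 6.05% of all genes tested. spe-18, a sperm gene, was at 6.89, 9.59 and 3.90 CPM in N2 and at 3.43 and 4.58 in N2_Star. The 41 oocyte and maternal genes had a median of -0.05 and the 9 early embryo genes one of -0.10, which turned to 0.16 without N2_Star replicate 1 and to 0.21 without N2 replicate 3, respectively. oma-1, of oocyte maturation, was at 23.8, 21.1 and 20.8 CPM in N2 and at 25.8 and 36.0 in N2_Star. Both N2_Star libraries lay above N2, with an unadjusted p of 0.0577 in edgeR. msp-64, of the major sperm protein family, was at 5.96, 5.49 and 7.79 CPM in N2 and at 3.11 and 3.49 in N2_Star. The log2 fold changes of spn-4, tbx-38 and lin-26 were 0.30 ± 0.188, -1.46 ± 1.05 and 0.25 ± 0.213.

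Large families and housekeeping genes had list medians between the quartiles of all genes, except the pals and heat shock lists, which lay above. The 82 cytosolic ribosomal protein genes had a median of 0.19, with 4 higher at an unadjusted p below 0.05, beside 1.82% of all genes tested. rpl-38, picked as the smallest p of the 82, was at 30.1, 26.7 and 32.5 CPM in N2 and at 40.4 and 59.5 in N2_Star. Its unadjusted p was 0.00809 in edgeR, and it did not pass the adjusted threshold. The 53 replicative histones had a median of 0.09, the 30 collagens 0.08, the 180 F-box genes 0.12, the 55 MATH and BTB genes 0.05, the 55 C-type lectins 0.08, the 69 chemoreceptors 0.18, the 100 nuclear hormone receptors 0.07 and the 69 detoxification genes 0.09. col-38, a cuticle collagen picked as the smallest p of the 30, was at 33.8, 25.5 and 26.6 CPM in N2 and at 47.5 and 53.4 in N2_Star. Its unadjusted p was 0.00568 in edgeR, and it did not pass the adjusted threshold. Only 1 of the 30 collagens was higher at an unadjusted p below 0.05 in edgeR. The 17 pals genes, a family of pathogen responses, had a median of 0.37 that turned to -0.51 without N2_Star replicate 1. pals-25 was at 82.2, 53.3 and 101 CPM in N2 and at 132 and 105 in N2_Star. The 13 inducible heat shock genes had a median of 0.29, or -0.35 without N2_Star replicate 1 and 1.04 without N2 replicate 3. Members of smallest p in the other families were mostly scarce in N2 and N2_Star. clec-48, fbxb-96, fbxa-6, cyp-35A2, nhr-173, nhr-113 and srh-25 had at most 2.54 CPM in every N2 and N2_Star library. srh-25 had a count of 0 in all of N2. In MY16 nhr-113 and srh-25 had means of 43.0 and 15.9 CPM, and they were tested because of their counts in MY16 and MY16_Star. srh-213, a chemoreceptor gene, was at 5.26, 6.11 and 5.19 CPM in N2 and at 10.5 and 9.59 in N2_Star, and clec-41 was at 1.87, 2.85 and 5.19 against 9.14 and 5.45. his-4 was lower without overlap, at 32.4, 31.7 and 27.9 CPM in N2 and 20.4 and 21.6 in N2_Star. The remaining log2 fold changes were 0.31 ± 0.174 (his-35), 0.47 ± 0.185 (rpl-5), 0.52 ± 0.259 (col-111), -0.94 ± 0.426 (bath-36), 0.62 ± 0.290 (btb-12), 0.75 ± 0.364 (pals-1), 1.32 ± 0.669 (hsp-16.41) and 0.19 ± 0.146 (hsp-6). Scaling by all reads, which moved the median of all genes by -0.14, put the medians of the histones, collagens, F-box, MATH and BTB, lectin, nuclear hormone receptor and detoxification lists below 0. Members of several of these families are near copies that may share reads.

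**Figure D4:**
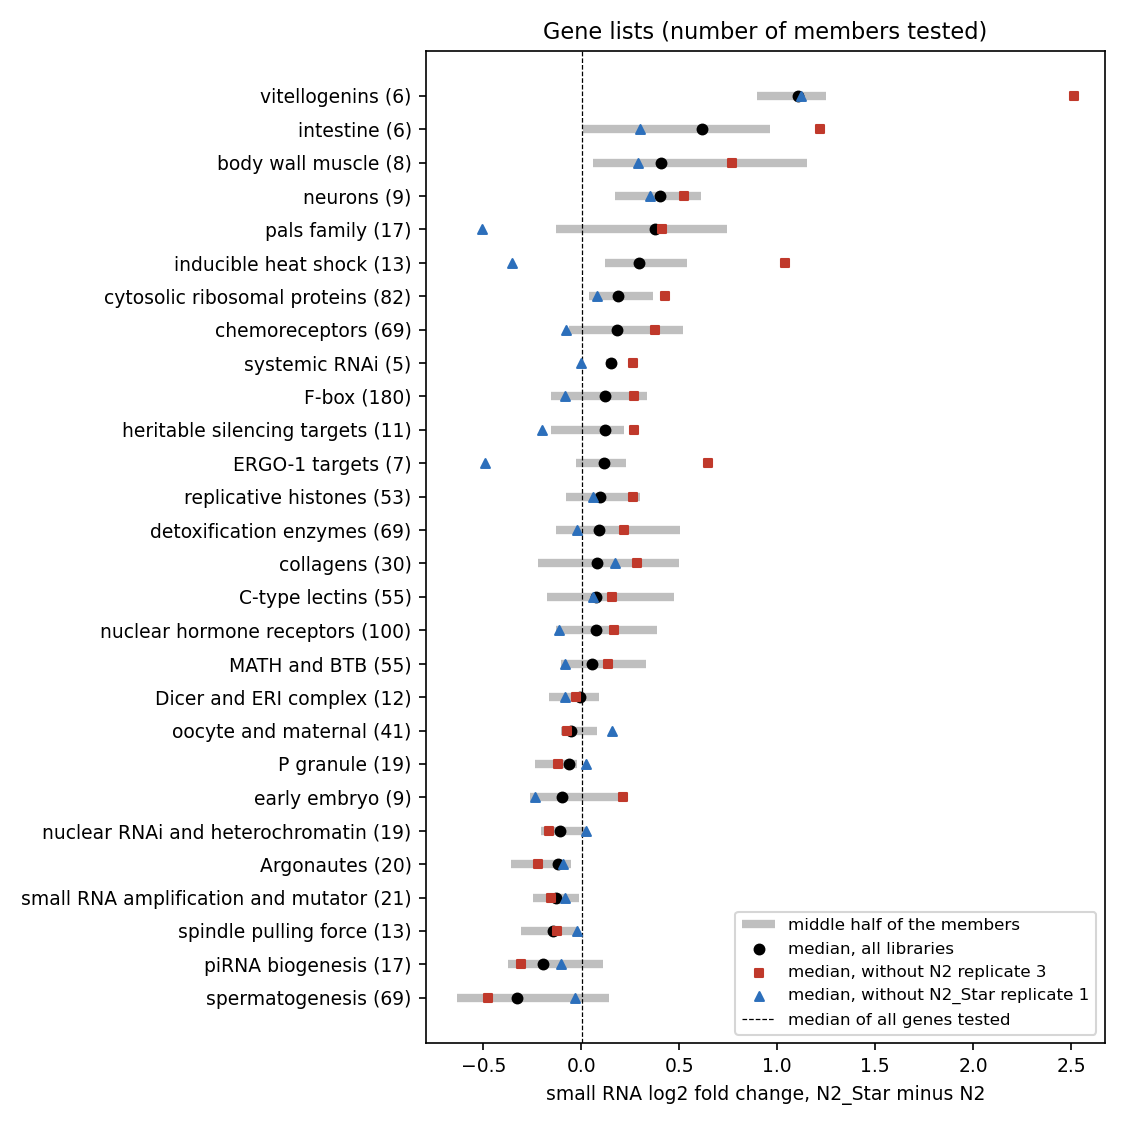
Median log2 fold change of small RNA, N2_Star minus N2, for the 28 gene lists, with the number of members tested in brackets. Black points use all libraries, the grey bar spans the quartiles of the members, red squares leave out N2 replicate 3 and blue triangles N2_Star replicate 1. The dashed line is the median of all genes, 0.01, and the vitellogenins move from 1.11 to 2.51 without N2 replicate 3.

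The 5 most abundant genes in N2 included 3 noncoding genes that overlap miRNAs. T09B4.14, which overlaps mir-1, was at 28517, 48450 and 106658 CPM in N2 and at 45085 and 23958 in N2_Star. F16A11.6, which overlaps mir-71, was at 24960, 20503 and 54677 in N2 and at 42203 and 40730 in N2_Star. K01F9.6, which overlaps mir-80, was at 9746, 11059 and 23125 in N2 and at 13613 and 12640 in N2_Star. In all 3 genes N2 replicate 3 was the highest library and the groups overlapped. The genes of mir-1, mir-71 and mir-80 themselves had means of 0.0234, 0.104 and 1.02 CPM over the 5 libraries. Whether the counts at the 3 noncoding genes are these miRNAs or RNA made by the polymerases was not tested. linc-22, a long intergenic RNA on chromosome X, ran from 11862 to 19228 CPM in N2 and was at 22709 and 8717 in N2_Star. WBGene00045366, without a symbol here, was at 3277, 2450 and 15255 in N2 and at 11378 and 4025 in N2_Star. No difference at these 5 genes exceeded the spread between libraries, with an unadjusted p of 0.332 or more in edgeR.

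Genes whose small RNA changed between MY16_Star and MY16 were followed in N2_Star. Of the 70 that were higher in MY16_Star none was called between N2_Star and N2, and their median there was 0.20. rcan-1, which encodes a regulator of calcineurin, was at 241, 171 and 257 CPM in N2 and at 281 and 291 in N2_Star, while its means were 0.842 in MY16 and 75.0 in MY16_Star. zip-2, which encodes a transcription factor of the infection response, was at 3206, 3161 and 3709 CPM in N2 and at 3604 and 3080 in N2_Star, against 32.1 in MY16 and 1114 in MY16_Star. At rcan-1 both N2_Star libraries lay above N2 and at zip-2 the groups overlapped, with log2 fold changes of 0.36 ± 0.202 and -0.01 ± 0.215. Of the 55 genes lower in MY16_Star, W04B5.3 and T20B3.1 were the 2 called between N2_Star and N2, beside 0.0245% of all genes, and the median of the 55 was 0.17. Without overlap between N2_Star and N2, 17 of the 70 were higher and 1 lower, and 18 of the 55 were higher and 6 lower, beside 9.44% and 6.05% of all genes.

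The mRNA of the same groups was counted in other libraries, 3 in each group. There 17 genes were higher and 4 lower in N2_Star, 0.122% and 0.0286% of 13983 tested, and no gene was called by edgeR when any one N2 library was left out, although 1146 or more had an unadjusted p below 0.05. T28B8.1 mRNA was at 59.3, 52.0 and 78.7 CPM in N2 and at 54.0, 117 and 92.2 in N2_Star, a log2 fold change of 0.47 ± 0.243 with an edgeR quasi-likelihood adjusted p of 0.478. W04B5.3 mRNA was at 22.3, 30.6 and 54.3 CPM in N2 and at 15.1, 45.4 and 42.9 in N2_Star, a change of -0.06 ± 0.389 with an adjusted p from edgeR of 0.985. The groups overlapped at both genes, so no change of mRNA was detected where small RNA had risen. T20B3.1 mRNA was at 16.0, 5.50 and 4.11 CPM in N2 and at 99.1, 8.85 and 10.4 in N2_Star. Its log2 fold change of 2.21 (edgeR adjusted p of 0.292) rested on N2_Star replicate 1 and was 0.17 without it.

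C55C3.3 was high in both assays. Its mRNA rose from 5.49, 4.68 and 4.95 CPM in N2 to 22.8, 24.7 and 16.0 in N2_Star, a log2 fold change of 2.07 ± 0.266 with an edgeR quasi-likelihood adjusted p of 0.0123. The groups were well apart, as they were for its small RNA, which did not pass the threshold. Of the other genes near the threshold in small RNA, otpl-1, C53D5.5, pho-11, nlp-40, spds-1 and Y41D4A.7 had mRNA log2 fold changes of 0.23, -0.10, 0.58, 0.35, -0.04 and -0.31, and none passed in mRNA. The mRNA of unc-54 was at 1593, 1419 and 1414 CPM in N2 and at 1300, 1725 and 1633 in N2_Star, and that of vit-2 was at 16685, 14482 and 15995 against 22744, 28107 and 24048, with edgeR adjusted p of 0.955 and 0.191.

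Of the 21 genes called in mRNA 8 had enough small RNA to test, and none of them passed the edgeR threshold, beside 0.0245% higher and 0.00% lower over all genes. C55C3.3, described above, was the one with groups that did not overlap upward, and DESeq2 gave it an adjusted p of 0.000149 in small RNA. sax-2, a Furry family gene of neurite growth that is on the list of heritable silencing targets, fell in mRNA from 201, 185 and 191 CPM in N2 to 48.4, 70.8 and 88.1 in N2_Star. Its small RNA was at 24.9, 24.0 and 13.0 CPM in N2 and at 14.2 and 10.03 in N2_Star, a log2 fold change of -0.80 ± 0.357 with an unadjusted p of 0.0457 in edgeR. Small RNA of sax-2 was lowest in N2_Star replicate 2, and N2 replicate 3 lay between the N2_Star libraries. F47D12.9 fell in mRNA by 1.22 (log2), and its small RNA was at 23.6, 21.3 and 50.6 CPM in N2 and at 18.4 and 14.8 in N2_Star. mnp-1 rose in mRNA by 1.43, and its small RNA was at 224, 210 and 279 in N2 and at 257 and 210 in N2_Star. The 6 tested genes with raised mRNA had a median small RNA change of 0.31 and the 2 with lowered mRNA one of -0.83. Spearman's rho between the fold changes was 0.145 across the 9864 genes tested in both assays, given as a description, since genes are not independent.

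**Figure D5:**
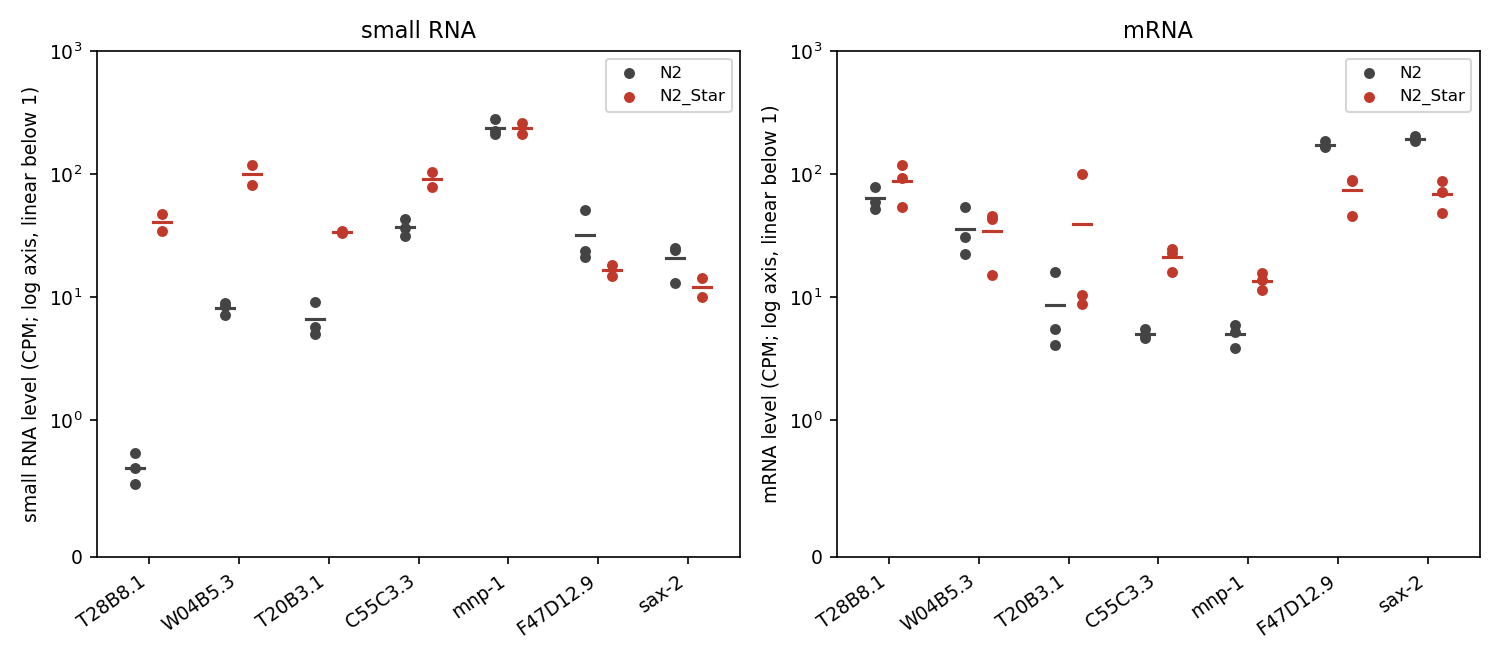
Level of 7 genes in each N2 and N2_Star library, small RNA on the left and mRNA on the right (CPM, log axes that are linear below 1), with each point 1 library and each bar a group mean. T28B8.1 is at 34.7 and 47.1 CPM of small RNA in N2_Star against 0.759 or less in N2, while its mRNA overlaps between the groups, and sax-2 and F47D12.9 are lower in the mRNA of every N2_Star library.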

How the data were processed

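The deposited tables hold whole-number counts per gene as the authors made them, without normalization. Per the submitters' processing notes, cutadapt, FastQC, Bowtie2, HTSeq and DESeq2 were used with ce11, and versions are not given in the sources used here. Per the labels' protocols the same small RNA library kit is named for both assays. That small RNA counts run antisense to the gene is read from the values and from undefined letters in the table's name. Lines that name no gene, 39.7% to 46.6% of the 5 small RNA libraries, were kept out, and reads in no gene feature made up 27.1% to 36.7%. Floors of 3 counts cover counting error only, since no molecular identifiers mark separate molecules.

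All 11 small RNA libraries, and separately all 12 mRNA libraries, were fitted as 4 groups with edgeR 4.0.16 in R 4.3.3 with limma 3.58.1, using TMM, filterByExpr, the quasi-likelihood F-test and a Benjamini-Hochberg adjusted p below 0.05. The test was checked on simulated counts. CPM values are TMM-scaled, and each SE is the absolute log2 fold change over the square root of F. Of 46904 identifiers 44017 had a symbol in RefSeq's gene table for WBcel235 (ce11), whose 1-based coordinates are printed.

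Members and lists were chosen with earlier results of these data known. Named are the genes past the threshold, those with the smallest p among genes of at least 5 CPM without overlap up to 10 in each direction, the 5 most abundant in N2, in each list the 2 tested members of smallest p, and further gpr-1, prg-1, hrde-1, csr-1, wago-1, rde-1, rcan-1 and zip-2. Alternatives changed the scaling, the filter, the groups in the fit, the block, the tool (DESeq2 1.42.0) and the libraries. The fit without both N2 replicate 3 and N2_Star replicate 1 was added after the data were seen.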

Additional observations from a re-analysis of the deposited data

Results flagged for a closer look

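At 11 genes named above, the N2_Star minus N2 difference in small RNA differed from the MY16_Star minus MY16 difference by the edgeR quasi-likelihood test of that interaction, at a Benjamini-Hochberg adjusted p below 0.05. At 8 of them the N2 pair had the more positive difference: by 6.89 on the log2 scale at T28B8.1, 4.95 at W04B5.3, 4.41 at T20B3.1, 3.07 at C55C3.3, 3.47 at C53D5.5, 3.15 at nlp-40, 3.61 at spds-1 and 2.84 at Y41D4A.7. Each of these 8 was named under a rule that asks for every N2_Star library to exceed every N2 library. The interaction holds the same N2_Star minus N2 difference, so it is no separate test of that rise. The mean of each was lower in MY16_Star than in MY16. At the other 3 the N2 pair had the more negative difference: -2.05 at rnh-1.3, -5.97 at rcan-1 and -5.13 at zip-2. Small RNA of these 3 changed by 0.26, 0.36 and -0.01 between N2_Star and N2, and by 2.32, 6.32 and 5.12 between MY16_Star and MY16.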

How the results depend on the processing

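The 3 higher and 0 lower small RNA genes became 93 and 30 without the filter on low counts, 13 and 1 with DESeq2, 2 and 1 on N2 and N2_Star libraries alone, 16 and 2 without N2 replicate 3 and N2_Star replicate 1, and 2 to 15 higher with single libraries left out. The 45 interaction genes became 282 without the filter, 122 with DESeq2 and 20 to 80 with single libraries left out. In mRNA the 17 higher and 4 lower became 218 and 15 without the filter, 0 and 0 on N2 and N2_Star libraries alone, 348 and 39 with DESeq2, and 0 to 164 and 0 to 13 with single libraries left out. Libraries of N2 and N2_Star with the same replicate number had correlations of their deviations of -0.06 and 0.17 in small RNA, and of 0.19, -0.02 and 0.12 in mRNA. The deviations of the 2 N2_Star small RNA libraries mirror each other, so their 2 values are not separate. Whether replicate numbers mark a shared batch cannot be told from these values. The replicate block gave 3 and 0 genes in small RNA, 41 in the interaction, and 89 and 20 in mRNA. Scaling by all reads moved the median of all small RNA genes by -0.14 and called the same 3 genes.

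Signs turned at genes that did not pass the threshold, the cause of which was not tested. With single libraries left out, the log2 fold changes of small RNA ran from -0.80 (N2_Star replicate 1) to 0.62 at linc-22, -0.38 to 0.38 (N2 replicate 3) at K01F9.6, -0.79 (N2_Star replicate 1) to 1.48 at WBGene00045366, -0.79 (N2_Star replicate 1) to 0.97 at Y17D7C.1, -0.13 (N2_Star replicate 2) to 0.95 at cgh-1, -1.41 (N2_Star replicate 1) to 3.73 at nhr-113, -0.20 (N2_Star replicate 1) to 1.32 at pals-1, -0.10 (N2_Star replicate 1) to 1.997 at hsp-16.41, -0.19 to 0.055 (N2_Star replicate 1) at prg-1, -0.13 (N2_Star replicate 2) to 0.39 at hrde-1, -0.55 to 0.21 (N2_Star replicate 1) at csr-1, -0.32 to 0.031 (N2 replicate 2) at wago-1 and -0.12 to 0.14 (N2_Star replicate 2) at zip-2, where the library in brackets is the one whose absence gave the turned end of the range. The sign also turned at WBGene00045366 without N2 replicate 1 (-0.19) or 2 (-0.26), at linc-22 (-0.083), csr-1 (0.069) and prg-1 (0.048) without N2 replicate 2, at zip-2 without N2 replicate 3 (0.11) and at W04B5.3 mRNA without N2_Star replicate 1 (0.30). That of W04B5.3 mRNA ran from -0.27 to 0.38 (N2 replicate 3). Without both N2 replicate 3 and N2_Star replicate 1 the sign turned at linc-22 (-0.60), K01F9.6 (0.27), Y17D7C.1 (-0.28), tbx-38 (0.014), nhr-113 (-1.53), pals-1 (-0.22) and csr-1 (0.095). The block turned K01F9.6 (0.28), scaling by all reads turned linc-22 (-0.072), and zip-2 was 0.017 without the filter and 0.0013 with at least 5 CPM in 2 libraries. The shallowest library, N2 replicate 3 with 1778321 counts, sets the depth limit, since a count of 0 there allowed a level of up to 1.95 CPM.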
